A study of Danio rerio with 18 samples.

Results

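The genes described here are the solute carriers that move sugars, amino acids, peptides, ions, phosphate and organic ions across the epithelia of the gut and the kidney, measured by RNA-seq in young zebrafish of the AB strain. They were chosen by name: a gene was a member if its symbol began with slc, followed by family number 2, 5, 6, 7, 9, 12, 15, 20, 22, 26 or 34, the letter a and a digit, with case ignored. This gave 144 members of 32520 genes: 34 in the sugar families (19 of SLC2, 15 of SLC5), 45 in the amino acid families (27 of SLC6, 18 of SLC7), 5 peptide carriers (SLC15), 36 ion carriers (10 of SLC9, 15 of SLC12, 11 of SLC26), 7 phosphate carriers (3 of SLC20, 4 of SLC34) and 17 organic ion carriers (SLC22). Among them, 2 matched by name only and do not code for a carrier (SLC7A6OS and slc2a4rg). The family labels are broad: SLC6 also holds carriers of neurotransmitters, and SLC5 also carriers of iodide, vitamins, choline, inositol and monocarboxylates. In the deposited names, 91 members carry a human symbol in capitals, and 31 members share 15 symbols between them, so the Ensembl identifier is added wherever a symbol stands for more than 1 gene.

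Kidney was sampled at day 7 and intestine at day 5 after fertilization, each from 3 groups of 3 libraries. The chd8-/- group carries a mutation of the gene for a chromatin remodeller. The GF (germ-free) group was wild type, washed with polyvinylpyrrolidone and hypochlorite, kept in antibiotic medium and then raised in sterile medium. The CV (conventionally raised) wild type group came from the same spawned eggs as GF, without that washing. The labels give 70 chd8-/-, 50 GF and 50 CV embryos for kidney, and 40, 30 and 30 for intestine in that order, and do not say how these were divided among libraries. The chd8-/- parents were mated in circulating system water and the parents of the other groups in autoclaved system water. The chd8-/- samples were also deposited as a separate later set and frozen in another way, so genotype, rearing and batch cannot be told apart. Nor can tissue be told apart from age. The zebrafish kidney also holds the blood-forming tissue, and nothing says that replicates came from separate clutches, so p-values measure the spread between these libraries, which may be technical.

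Solute carriers work in series across an epithelium. A carrier of the brush border facing the lumen, often driven by the sodium gradient that the sodium pump maintains or by protons, takes a solute into the cell, and a carrier of the opposite membrane lets it out into the blood. Gut and kidney tubule use many of the same families for this, with paralogs that are known in mammals for one organ or the other: SLC5A1, SLC15A1 and SLC34A2 for the small intestine, and SLC5A2, SLC12A1 and SLC34A1 for the nephron.

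Total counts were 26809112 to 36624972 per library. Levels are given as CPM, read counts relative to a library's total, scaled by TMM factors that even out differences in composition between libraries. CPM are not divided by gene length, so levels are compared between libraries and not between genes. Expression of chd8 itself (CHD8, ENSDARG00000075543) was 30.2, 34.7 and 38.9 CPM in chd8-/- kidney and 45.8, 51.2 and 51.7 CPM in CV kidney, and 31.8, 34.3 and 41.3 CPM in chd8-/- intestine and 55.7, 53.5 and 51.4 CPM in CV intestine. GF kidney 1, 2 and 3 had 53.8, 33.4 and 54.0 CPM, so GF kidney 2 lay within the chd8-/- kidney range. GF intestine had 62.4, 57.7 and 62.6 CPM. The log2 difference of chd8-/- over CV was -0.55 ± 0.18 in kidney (edgeR adjusted p = 0.468) and -0.60 ± 0.15 in intestine (edgeR adjusted p = 0.0292). Summed enterocyte markers (18 genes, of which 1 FABP1 entry was at 0 throughout) reached 336 to 1010 CPM in the 9 kidney libraries and 8880 to 16000 CPM in the 9 intestine libraries. The sums of the kidney lists did not mark the kidney in this way: the 28 tubule markers summed to 807 to 1230 CPM in kidney and 1640 to 2380 CPM in intestine, and the 9 podocyte markers to 261 to 422 CPM in kidney and 265 to 411 CPM in intestine. A sum rests mostly on its most abundant genes. CDH17 and CUBN, both higher in intestine, held a large part of the tubule sum there, so it does not speak for the whole list. Single genes of these lists went both ways. The podocyte gene NPHS1 lay at 4.8 to 12.3 CPM in kidney and 0.782 to 1.69 CPM in intestine, and the nephron regulator PAX8 at 9.01 to 30.5 CPM in kidney and 0.74 to 3.64 CPM in intestine. The loop marker umod stayed at or under 0.505 CPM in all 18 libraries, and CDH17, used as a tubule marker in zebrafish, was lower in kidney (156 to 348 CPM) than in intestine (540 to 906 CPM). Both dissections held other tissue: summed skeletal muscle markers reached 47500 to 92600 CPM in kidney and 7510 to 12000 CPM in intestine, exocrine pancreas markers 33600 to 76100 CPM in kidney and 13500 to 32600 CPM in intestine, and liver markers 5950 to 20200 CPM in kidney and 16600 to 25000 CPM in intestine. Summed skin and ionocyte markers were 4200 (CV kidney 1) to 20500 CPM in kidney and 8530 to 12900 CPM in intestine. In such bulk samples fewer cells of a type and less RNA per cell cannot be told apart, and the part of these tissues in the results below was not tested.

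Kidney and intestine each expressed most of the carriers but in different proportions. Of the 144 members, 111 reached at least 1 CPM in all 9 kidney libraries and 109 did in all 9 intestine libraries, while 12 and 11 stayed under 1 CPM in all 9. A mean of 100 CPM or more was reached by 5 members in kidney and 16 in intestine. The summed level of all members was 2300 to 3800 CPM in kidney and 5360 to 7030 CPM in intestine.

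Many carriers differed between the tissues. In chd8-/- fish, 82 of 135 members tested were called (40 higher and 42 lower in kidney than in intestine, 60.7%), against 37.0% of all genes tested. In GF fish 78 of 138 were called (35 higher, 43 lower, 56.5%), against 35.1% of all genes. In CV fish 83 of 137 were called (37 higher, 46 lower, 60.6%), against 37.2% of all genes. A gene was called when its adjusted p was under 0.05 in edgeR's quasi-likelihood test with Benjamini-Hochberg adjustment over all genes tested. The median log2 difference of kidney over intestine was -0.04 in chd8-/-, -0.23 in GF and -0.06 in CV fish over the members tested, against 0.03, -0.03 and -0.00 over all genes tested. In each comparison the tissues did not overlap for 51.5% (chd8-/-), 50.4% (GF) and 51.0% (CV) of all genes tested. Over all 9 kidney and 9 intestine libraries, 61 of the 134 members tested in all 3 comparisons did not overlap (27 higher and 34 lower in kidney, 45.5%), against 24.0% of all genes tested in all 3. The 3 comparisons share no library. Of the 134 members tested in all 3, 64 were called the same way each time (29 higher and 35 lower in kidney, 47.8%), and 0 were called in opposite ways. Of all 20171 genes tested in all 3, 22.4% were called the same way (1980 higher and 2533 lower in kidney), and 20 in opposite ways.

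**Figure D1:**
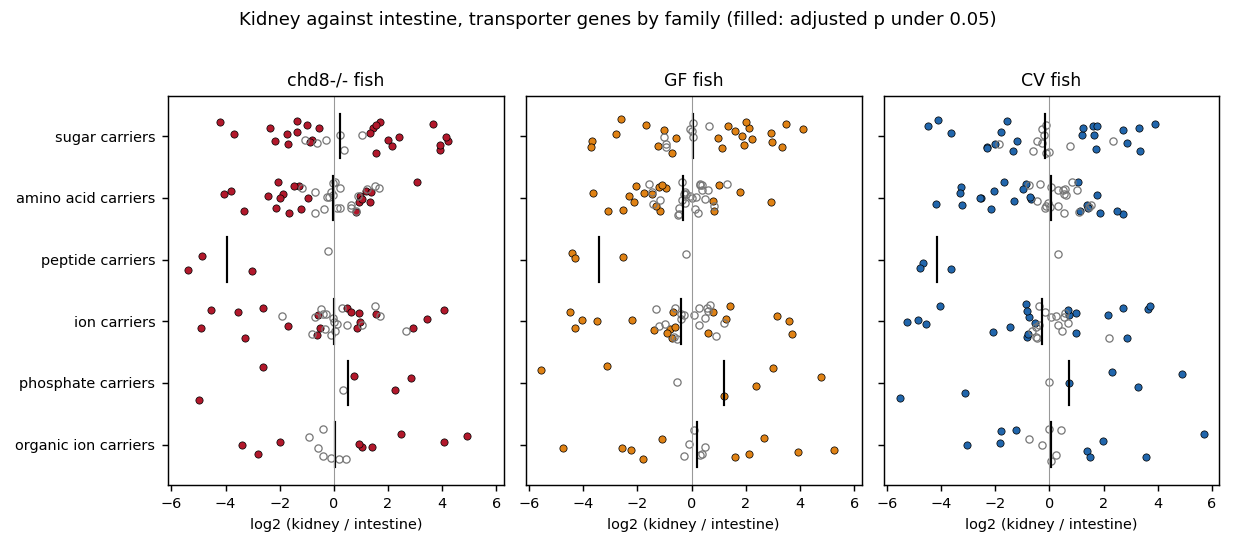
Log2 difference of kidney over intestine for each member tested, by family, in chd8-/-, GF and CV fish (left to right); a filled point was called at an adjusted p under 0.05 and the bar is the family's median. The peptide carriers have the lowest family median in all 3 panels, and the sugar and phosphate carriers spread to both sides. SLC34A1 ENSDARG00000054658 in chd8-/- fish and slc22a13a in CV fish are left out, since 1 tissue had 2 counts in all or none.

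In the sugar families, 11 members were higher and 8 lower in kidney in all 3 comparisons, of 31 tested in each (61.3%, against 22.4% of all genes). The 8 include slc2a4rg, which is no carrier. SLC5A2, the sodium-glucose carrier that takes up most filtered glucose in the mammalian proximal tubule, had a lowest level of 18.5, a median of 35.2 and a highest of 51.1 CPM in kidney, against 1.1, 3.75 and 6.55 CPM in intestine. SLC5A1, the sodium-glucose carrier of the mammalian small intestine, had 22.5, 43.5 and 113 CPM in kidney, against 259, 369 and 603 CPM in intestine. For neither gene did the 9 kidney libraries overlap the 9 intestine libraries, and the directions were opposite. The log2 difference of kidney over intestine for SLC5A2 was 4.13 ± 0.32 (SE) in chd8-/-, 2.93 ± 0.25 in GF and 2.86 ± 0.58 in CV fish, and that for SLC5A1 was -2.35 ± 0.33, -2.60 ± 0.57 and -3.65 ± 0.41 in the same order. The adjusted p ranged from 3.63e-05 to 0.00638 for SLC5A2 and from 0.000132 to 0.012 for SLC5A1. SLC5A12, a sodium-coupled carrier of lactate and other monocarboxylates, stood with SLC5A2: 40.8, 63.8 and 91.4 CPM in kidney, against 2.76, 5.74 and 8.56 CPM in intestine.

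The facilitated sugar carriers of the SLC2 family also split by gene. SLC2A5, the fructose carrier, had 0.135, 1.17 and 2.19 CPM (lowest, median, highest) in kidney, against 12.7, 17.7 and 25.6 CPM in intestine. slc2a3a, a glucose carrier, had 1.65, 2.56 and 6.02 CPM in kidney, against 20.6, 40.1 and 55.4 CPM in intestine. Both were lower in every kidney library than in any intestine library. SLC2A2, which lets glucose out of enterocytes and tubule cells in mammals, differed less: 36 to 94.3 CPM in kidney and 117 to 202 CPM in intestine, with log2 differences of -0.79 ± 0.15 in chd8-/-, -1.03 ± 0.26 in GF and -1.57 ± 0.29 in CV fish. Its call in GF fish held in 2 of 6 fits that each left out 1 library, the losses coming without GF intestine 1, GF intestine 2, GF kidney 1 or GF kidney 3, where the log2 difference was -1.01, -0.90, -0.85 and -0.93. On the kidney side, slc2a11a had 5.34 to 20.9 CPM in kidney and 0.442 to 1.6 CPM in intestine, and slc2a9l1, whose human relative carries urate, had 2.26 to 8.17 CPM in kidney and 0 to 0.654 CPM in intestine. SLC2A12, another glucose carrier, had 28.1 to 122 CPM in kidney and 12.8 to 23.6 CPM in intestine. None of these 3 overlapped between the tissues.

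**Figure D2:**
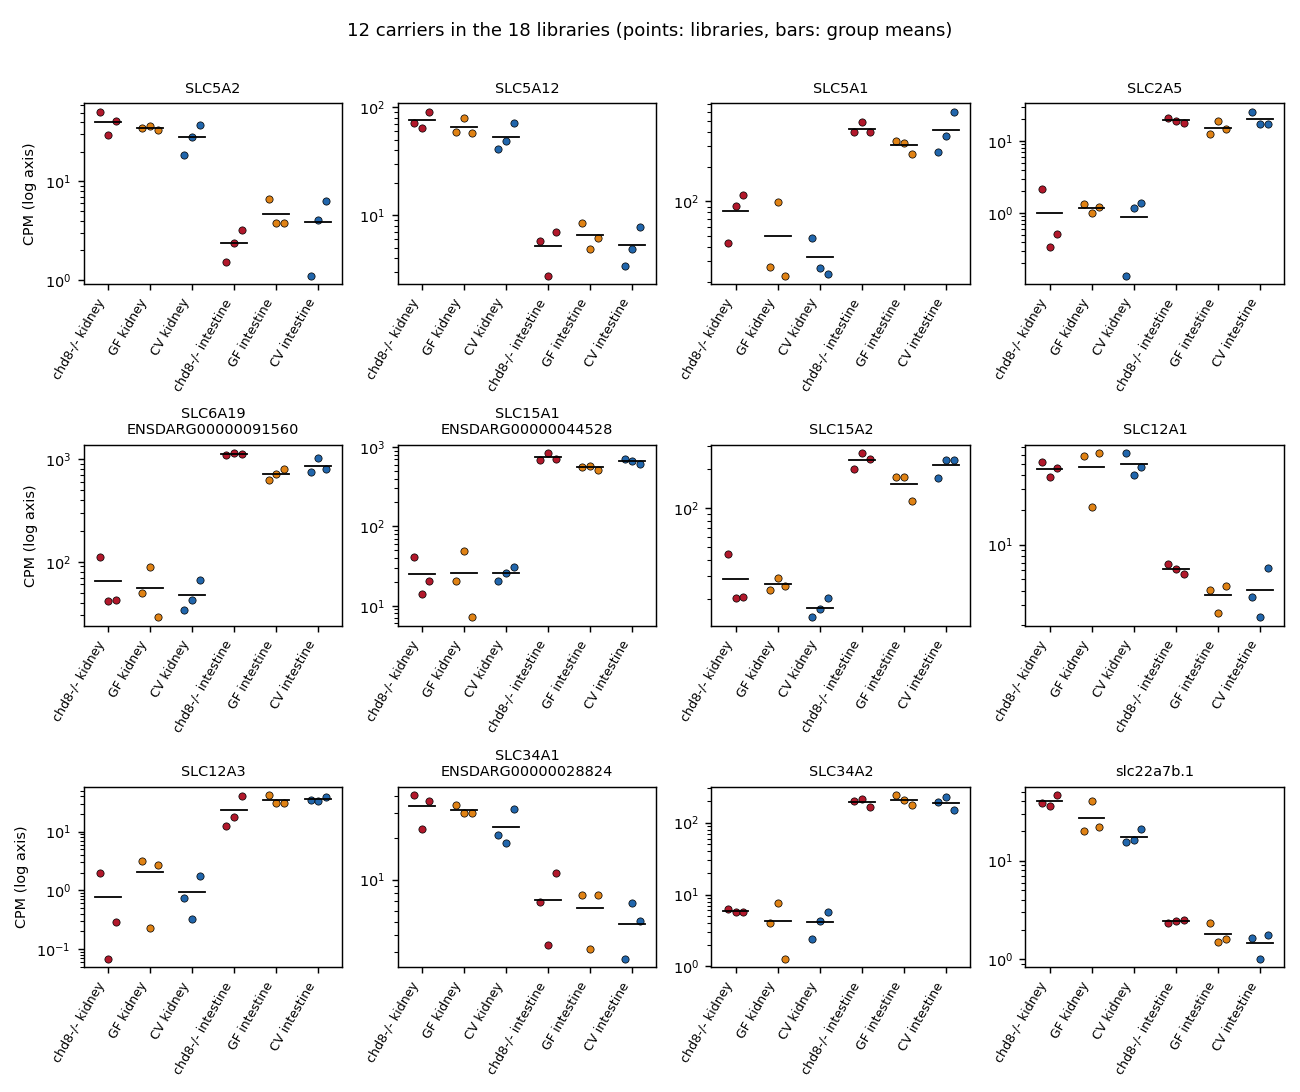
CPM (log axis) of 12 named carriers in every library, kidney groups left of intestine groups and chd8-/- before GF and CV. SLC5A2, SLC5A12, SLC12A1, SLC34A1 ENSDARG00000028824 and slc22a7b.1 are high in all 9 kidney libraries, and SLC5A1, SLC2A5, SLC6A19 ENSDARG00000091560, both peptide carriers shown, SLC12A3 and SLC34A2 are high in all 9 intestine libraries.

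In the amino acid families, 4 members were higher and 11 lower in kidney in all 3 comparisons, of 40 tested (37.5%, against 22.4% of all genes). Over all genes, 1980 were higher and 2533 lower. These members include carriers of neurotransmitters, such as SLC6A2 among the higher and slc6a4b among the lower. SLC6A19, the sodium-driven carrier of neutral amino acids of the brush border, is held by 3 genes here. ENSDARG00000091560 had 28.7, 42.7 and 111 CPM (lowest, median, highest) in kidney, against 623, 798 and 1140 CPM in intestine. ENSDARG00000018621 had 29.9 to 52.2 CPM in kidney and 131 to 213 CPM in intestine, and ENSDARG00000056719 had 16.0 to 129 CPM in kidney and 192 to 410 CPM in intestine. All 3 were lower in every kidney library than in any intestine library. Their log2 differences in CV fish were -4.17 ± 0.33, -2.06 ± 0.25 and -3.21 ± 0.36 in that order. For ENSDARG00000056719 in GF fish the value was -1.76 ± 0.55 (adjusted p = 0.0423), and it held in 1 of 6 fits that left out 1 library, that without GF kidney 2. The other 5 gave log2 differences of -1.88 to -1.43.

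Of the exchangers that need a heavy chain, SLC7A9 and SLC7A7 were lower in kidney in all 3 comparisons and SLC7A5 was not. SLC7A9, the brush-border exchanger of cystine and basic amino acids, had 8.95 to 24.8 CPM in kidney and 44.9 to 96.5 CPM in intestine, and SLC7A7, which passes basic amino acids on to the blood, had 16.1 to 25.2 CPM in kidney and 105 to 125 CPM in intestine. The kidney libraries lay below the intestine libraries for both. SLC7A5, a carrier of large neutral amino acids, was higher in kidney in chd8-/- (log2 difference 1.38, adjusted p = 0.0206) and CV fish (1.44, adjusted p = 0.0123), with 0.81 in GF fish (adjusted p = 0.418). GF intestine 3 was the highest intestine library for SLC7A5 by 3-fold or more, and the part of that library in the GF value was not tested. The glycine carrier SLC6A9 had 19.8 to 57.3 CPM in kidney and 173 to 307 CPM in intestine. Higher in kidney were SLC6A2, the noradrenaline carrier, with 22.9 to 49.5 CPM in kidney and 3.51 to 8.1 CPM in intestine, and SLC7A1, a carrier of basic amino acids, with 17.8 to 45.2 CPM in kidney and 8.88 to 16.8 CPM in intestine. In chd8-/- fish the SLC7A1 call (log2 difference 0.95 ± 0.25) was kept only without chd8-/- kidney 1, and the other 5 such fits gave 0.79 to 1.02. SLC7A8, the exit carrier of neutral amino acids, had 99.5 to 181 CPM in kidney and 119 to 142 CPM in intestine, with overlapping libraries.

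Of the 5 peptide carriers, 3 were lower in kidney in all 3 comparisons, of 4 tested in each (75.0%, against 22.4% of all genes). SLC15A1 is the proton-driven peptide carrier of the small intestine and is held by 2 genes. ENSDARG00000044528 had 7.15, 20.7 and 48.9 CPM (lowest, median, highest) in kidney, against 518, 674 and 832 CPM in intestine. ENSDARG00000100315 had 1.47, 8.35 and 16.8 CPM in kidney, against 152, 246 and 421 CPM in intestine. SLC15A2, the high-affinity paralog known for the mammalian kidney, had 14.4, 20.8 and 44.2 CPM in kidney, against 114, 202 and 266 CPM in intestine. So SLC15A2, too, was lower in every kidney library than in any intestine library, with log2 differences of -3.03 ± 0.33 in chd8-/-, -2.54 ± 0.21 in GF and -3.64 ± 0.24 in CV fish (adjusted p = 0.000215, 0.000117 and 6.23e-06). SLC15A4, a lysosomal carrier of histidine and peptides, had 6.36 to 16.5 CPM in kidney and 8.55 to 14.6 CPM in intestine. SLC15A5 reached at most 1.7 CPM in kidney and 0.243 CPM in intestine and was not tested.

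Of the ion carriers, 5 were higher and 8 lower in kidney in all 3 comparisons, of 36 tested (36.1%, against 22.4% of all genes). SLC12A1, the sodium-potassium-chloride carrier of the mammalian thick ascending limb, had 21.0, 47.0 and 61.7 CPM (lowest, median, highest) in kidney, against 2.35, 4.42 and 6.75 CPM in intestine. SLC12A3, the sodium-chloride carrier of the mammalian distal tubule, had 0.0673, 0.743 and 3.12 CPM in kidney, against 12.3, 33.1 and 42.4 CPM in intestine. The 2 nephron carriers therefore stood in opposite tissues, with no overlap between the libraries for either. The log2 difference for SLC12A1 was 2.91 ± 0.17 in chd8-/-, 3.70 ± 0.46 in GF and 3.62 ± 0.37 in CV fish (adjusted p = 1.25e-05, 0.000963 and 7.98e-05), and for SLC12A3 it was -4.92 ± 0.91, -4.05 ± 0.70 and -5.24 ± 0.49 (adjusted p = 0.00391, 0.00419 and 6.06e-05). slc12a10.1 had 0.445 to 5.65 CPM in kidney and 24.1 to 54.9 CPM in intestine. Its neighbour in name slc12a10.2, the sodium-chloride carrier known from zebrafish skin ionocytes, had 43.3 to 144 CPM in kidney and 34 to 57.8 CPM in intestine. It was called higher in kidney in chd8-/- (1.54 ± 0.24) and GF fish (1.40 ± 0.20), and had a log2 difference of 0.48 ± 0.26 in CV fish (adjusted p = 0.174). The part of skin and ionocyte RNA in these values was not tested.

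Among the exchangers, SLC26A3, which swaps chloride for bicarbonate in the gut, had 4.14, 9.77 and 16.0 CPM in kidney, against 165, 239 and 307 CPM in intestine. slc9a3.1, a sodium-proton exchanger of the type that brush borders use, had 14.1, 20.6 and 26.2 CPM in kidney, against 1.28, 2.14 and 4.1 CPM in intestine. SLC26A6, an anion exchanger, is held by 2 genes that differed in opposite ways. ENSDARG00000054127 had 21.5 to 34.8 CPM in kidney and 0.723 to 3.19 CPM in intestine, and ENSDARG00000097292 had 1.85 to 4.95 CPM in kidney and 6.29 to 19.7 CPM in intestine. Neither overlapped between the tissues. The log2 differences in chd8-/-, GF and CV fish were 4.08, 3.58 and 3.70 for ENSDARG00000054127, and -2.60, -0.91 and -1.47 for ENSDARG00000097292, whose GF call was lost without GF intestine 2 (-0.75) or GF kidney 3 (-0.83).

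Phosphate carriers were the family with the highest share called the same way in all 3 comparisons. The count was 6 of 7, 4 higher and 2 lower in kidney (85.7%, against 22.4% of all genes). Of the SLC34 family, which carries phosphate with sodium across brush borders, SLC34A2 (the mammalian intestinal form) had 1.27, 5.63 and 7.71 CPM in kidney, against 150, 197 and 243 CPM in intestine, and slc34a2b had 10.9 to 15.5 CPM in kidney and 81.5 to 142 CPM in intestine. Of SLC34A1, the mammalian proximal tubule form, ENSDARG00000028824 had 18.2, 30.2 and 40.7 CPM in kidney, against 2.69, 6.8 and 11.2 CPM in intestine. ENSDARG00000054658 had 3.74 to 9.89 CPM in kidney and 0 to 0.335 CPM in intestine, where it held 2 counts in all in chd8-/-. For none of the 4 genes did the 9 kidney libraries overlap the 9 intestine libraries, as for 24.0% of all genes. The log2 difference for SLC34A2 was -4.99 ± 0.18 in chd8-/-, -5.56 ± 0.62 in GF and -5.50 ± 0.36 in CV fish (adjusted p = 4.19e-06, 0.000627 and 5.46e-06), and for SLC34A1 ENSDARG00000028824 it was 2.26 ± 0.41, 2.36 ± 0.33 and 2.31 ± 0.36 (adjusted p = 0.00366, 0.00152 and 0.000917). The SLC20 carriers are known for supplying phosphate to cells in general. SLC20A1 ENSDARG00000020114 had 77.7 to 179 CPM in kidney and 7.68 to 24.8 CPM in intestine, without overlap, while SLC20A1 ENSDARG00000010641 had 52.1 to 155 CPM in kidney and 86.4 to 158 CPM in intestine, with overlap. SLC20A2 had log2 differences of 0.73 ± 0.16, 1.18 ± 0.21 and 0.72 ± 0.22 in chd8-/-, GF and CV fish, and the CV call was lost without CV intestine 1 (0.58), CV intestine 3 (0.70), CV kidney 2 (0.73) or CV kidney 3 (0.63), and with scaling by total count only (0.58).

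Of the organic ion carriers, 5 were higher and 3 lower in kidney in all 3 comparisons, of 16 tested (50.0%, against 22.4% of all genes). SLC22A2, the organic cation carrier known for the mammalian proximal tubule, had 92.1, 289 and 480 CPM (lowest, median, highest) in kidney, against 39.9, 50.8 and 80.5 CPM in intestine. slc22a7b.1 and slc22a7b.2, relatives of a mammalian organic anion carrier, had 15.5 to 46.4 CPM and 11 to 34.4 CPM in kidney, against 1.01 to 2.52 CPM and 0 to 1.15 CPM in intestine. The third gene of that name, slc22a7b.3, had 8.68 to 28.2 CPM in kidney and 9.32 to 33.3 CPM in intestine, so its libraries overlapped where those of the other two did not. The log2 difference for slc22a7b.1 was 4.08 ± 0.17 in chd8-/-, 3.93 ± 0.35 in GF and 3.57 ± 0.29 in CV fish (adjusted p = 4.19e-06, 0.000176 and 1.76e-05). In the other direction, SLC22A18 had 10.7 to 24.6 CPM in kidney and 91.0 to 126 CPM in intestine. slc22a13a had no count in any CV kidney library and 3.56 CPM on average in CV intestine, at least 102-fold lower in CV kidney against a floor of 3 counts over the 3 libraries. slc22a5, the carnitine carrier, stayed at or under 0.269 CPM in all 18 libraries.

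Across the 15 symbols held by more than 1 gene, all copies were called the same way in all 3 tissue comparisons for 3 symbols (SLC6A19 and SLC15A1 lower, SLC34A1 higher in kidney). Copies were called in opposite ways in at least 1 comparison for 2 symbols, of which SLC26A6 was so in all 3. For SLC20A1, 1 copy was called in all 3 and the other in none. Reads that fit near-identical copies can be split or dropped in counting, and how they were treated is not given in the sources used here, so the split between copies is uncertain.

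Genes that work with the carriers were taken as a list of 54: heavy chains, scaffolds, sodium pump subunits, channels, endocytic receptors, carbonic anhydrases, brush-border enzymes and regulators. Of 53 tested in each comparison, 16 were called higher and 23 lower in kidney in chd8-/- fish (73.6%, against 37.0% of all genes), 11 and 23 in GF fish (64.2%, against 35.1%), and 11 and 26 in CV fish (69.8%, against 37.2%). The heavy chain of SLC7A9, SLC3A1, had a log2 difference of -3.02 ± 0.22 in CV fish. The heavy chain SLC3A2 (ENSDARG00000037012), which pairs with SLC7A5 and SLC7A7, had 1.73 ± 0.18 in CV fish, opposite to SLC7A7 and with the same sign as SLC7A5. The list also holds slc3a2a, a further gene for this heavy chain, whose value is not reported here. The endocytic receptors differed in opposite ways, with LRP2 at 89.5 to 182 CPM in kidney and 21.2 to 38.5 CPM in intestine, and CUBN at 71.6 to 139 CPM in kidney and 302 to 749 CPM in intestine.

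The comparison of chd8-/- with CV intestine holds genotype, rearing and batch together, which cannot be told apart. Few carriers passed the test there: 9 of 130 members tested were called (6 higher, 3 lower in chd8-/-, 6.92%), against 9.17% of all genes tested (3.98% higher, 5.19% lower). They were 4 of 16 organic ion carriers, 3 of 38 amino acid carriers, 1 of 32 sugar carriers and 1 of 34 ion carriers, and none of the 4 peptide and 6 phosphate carriers tested. At an unadjusted p under 0.05 the count was 26 higher and 9 lower of the 130 members, a share near the 24.6% of all genes in both directions together. The share of all genes in each direction is not given at that threshold, so the split is not read as a result about the members. The median log2 difference of chd8-/- over CV was 0.10 over the members, against -0.01 over all genes. Scaling by total count only moved the median of all genes to -0.14, and the members then called were 3 higher and 6 lower. The share of all genes called in that fit is not given here, so this count is not read as a result about the members. None of the 9 members called above changed direction with that scaling, so the set called was partly another one.

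The 6 higher members began with 3 that had log2 differences above 1. SLC6A18, known in mouse for glycine and alanine uptake in the kidney, had 95.6, 88.5 and 107 CPM in chd8-/- intestine, against 33.7, 54.5 and 27.7 CPM in CV intestine. slc22a7b.3 had 25.0, 33.3 and 26.4 CPM in chd8-/-, against 11.9, 9.32 and 13.0 CPM in CV intestine. slc26a3.1, a relative of the gut chloride-bicarbonate exchanger, had 7.8, 11.9 and 7.04 CPM in chd8-/-, against 3.51, 4.37 and 3.14 CPM in CV intestine. All chd8-/- libraries lay above all CV libraries for the 3 genes. Their log2 differences were 1.32 ± 0.23 (adjusted p = 0.0058), 1.29 ± 0.18 (adjusted p = 0.00175) and 1.26 ± 0.25 (adjusted p = 0.0121). The other 3 were slc22a21 (0.73 ± 0.17), SLC22A2 (0.57 ± 0.14) and slc5a8l (0.54 ± 0.14), a relative of a monocarboxylate carrier, with adjusted p-values of 0.0227 to 0.04.

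The 3 lower members were slc6a22.1, slc22a15 and SLC6A13. slc6a22.1 had 17.0, 17.9 and 20.0 CPM in chd8-/- intestine, against 34.4, 34 and 36.4 CPM in CV intestine. slc22a15 had 6.31, 5.16 and 5.92 CPM in chd8-/-, against 11.9, 9.39 and 10.7 CPM in CV intestine. SLC6A13, a carrier of GABA and taurine, had 12.1, 13.2 and 13.9 CPM in chd8-/-, against 21.9, 22.8 and 17.3 CPM in CV intestine. The groups did not overlap for any of the 9 members called, a pattern that 30.3% of all genes tested showed in this comparison. The log2 differences of the 3 were -0.95 ± 0.14 (adjusted p = 0.00231), -0.89 ± 0.19 (adjusted p = 0.0142) and -0.67 ± 0.16 (adjusted p = 0.0281).

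**Figure D3:**
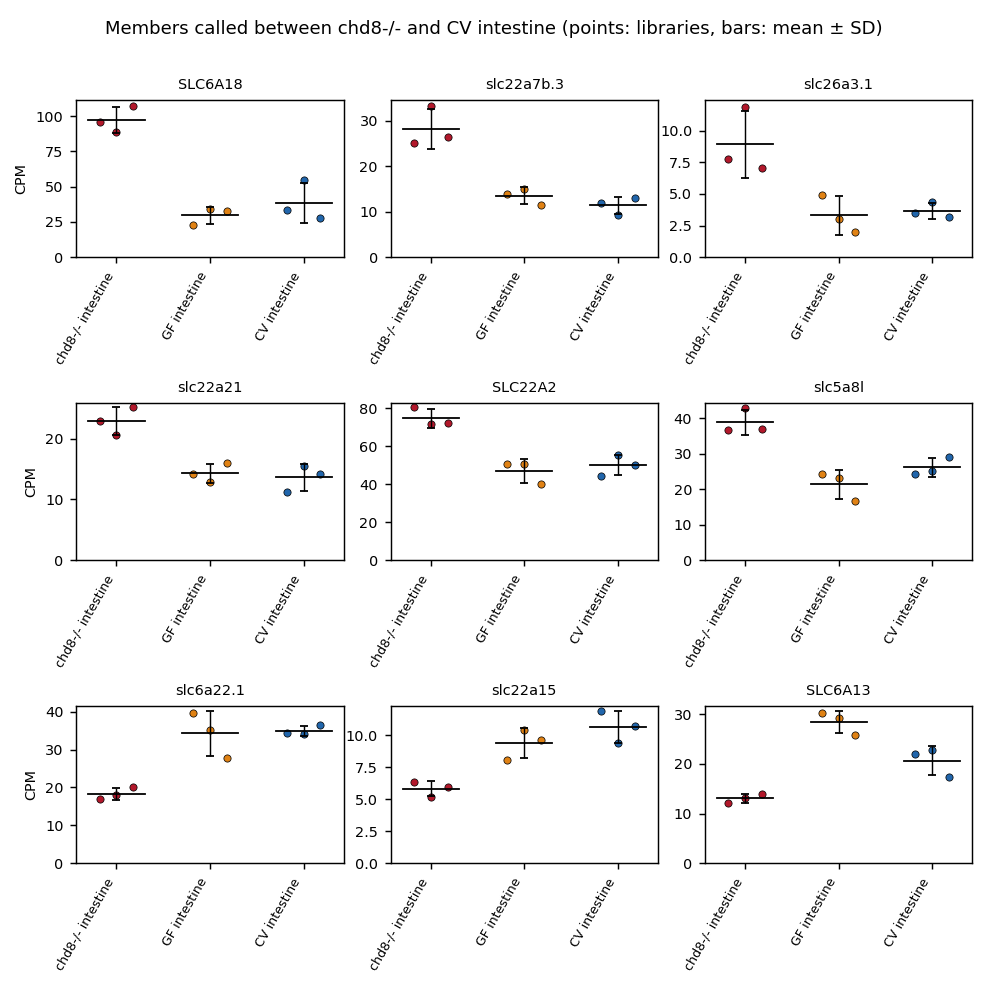
CPM of the 9 members called between chd8-/- and CV intestine in chd8-/-, GF and CV intestine (points: libraries; bars: mean ± SD, n = 3 per group). SLC6A18, slc22a7b.3 and slc26a3.1 stand highest above CV in chd8-/- fish, and slc6a22.1, slc22a15 and SLC6A13 lie below it.

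Most of these calls did not hold in every fit that left out 1 library, though no log2 difference changed sign. slc22a7b.3, SLC6A18 and slc6a22.1 were called in all 6 fits that each left out 1 library, slc26a3.1 in 5, slc22a15 and slc22a21 in 3, SLC6A13 and slc5a8l in 2 and SLC22A2 in 1. Leaving out chd8-/- intestine 1, 2 or 3 left 5, 3 and 5 members called, while leaving out CV intestine 2 raised the count to 24 (16 higher, 8 lower). The shares of all genes called in these fits are not given here. slc26a3.1 lost its call without chd8-/- intestine 2 (log2 difference 0.99). Without any 1 of the 3 chd8-/- libraries slc22a15 and slc22a21 lost theirs, with log2 differences of -0.95 to -0.81 and 0.67 to 0.80. SLC6A13 and slc5a8l did so too and also without CV intestine 1, at -0.71 to -0.61 and 0.47 to 0.59. SLC22A2 kept its call only without CV intestine 2, and the other 5 fits gave 0.49 to 0.61. Summed enterocyte markers were 14700, 16000 and 13600 CPM in chd8-/- intestine, against 12900, 12000 and 12300 CPM in CV intestine, and summed brush-border enzymes 2610, 3270 and 2680 CPM, against 1850, 2370 and 1970 CPM. Summed podocyte markers were 407, 411 and 400 CPM in chd8-/- intestine, against 265, 325 and 297 CPM in CV intestine. Skeletal muscle markers were also higher (11200 to 12000 CPM against 7510 to 10800 CPM) and red cell markers lower (106 to 128 CPM against 214 to 237 CPM). Tubule markers (2190 to 2380 CPM and 1670 to 2380 CPM) and exocrine pancreas markers (21700 to 32600 CPM and 13500 to 22700 CPM) overlapped. The part of any of these in the differences was not tested. Among the carriers of the tissue comparison, SLC15A1 ENSDARG00000100315 had 398, 421 and 378 CPM in chd8-/-, against 246, 305 and 216 CPM in CV intestine (log2 difference 0.63 ± 0.18, adjusted p = 0.0541), and SLC12A3 had 12.3, 18 and 41.1 CPM in chd8-/-, against 34.7, 33.1 and 39.6 CPM in CV intestine. Of the 53 partner genes tested, 7 were called (13.2%), against 9.17% of all genes: 3 were higher (the scaffold NHERF1 ENSDARG00000000068, the channel CFTR and the carbonic anhydrase ca15a) and 4 lower (the sodium pump subunits atp1a1a.3 and atp1b3a, the endocytic receptor lrp2b and the carbonic anhydrase ca4a).

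In kidney, chd8-/- against CV called no carrier with edgeR. The count was 0 of 133 members tested (0.0% of all genes tested), with 24 at an unadjusted p under 0.05 (22 higher, 2 lower), against 9.0% of all genes. DESeq2, run as an alternative on the same counts, called 8 members, all higher in chd8-/-, against 1.17% of all genes. These shares of all genes hold both directions together, so the directions are not read as a result about the members. The median log2 difference was 0.15 over the members and -0.01 over all genes, and 0.48 over the 52 partner genes tested, of which 41 had a positive value and 10 had an unadjusted p under 0.05, all 10 higher.

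The 8 members that DESeq2 called took in sugar, amino acid, ion, phosphate and organic ion carriers. slc22a7b.1, the organic anion carrier relative, had 38.2, 36.1 and 46.4 CPM in chd8-/- kidney, against 15.5, 16.1 and 20.8 CPM in CV kidney. slc5a8l had 39.9, 45.8 and 60.9 CPM in chd8-/-, against 18.3, 21.3 and 25.3 CPM in CV kidney. SLC26A1, a sulfate carrier, had 42.5, 24.5 and 24.5 CPM in chd8-/-, against 11.9, 12.8 and 15.2 CPM in CV kidney. The groups did not overlap for these 3, as for 15.8% of all genes tested. The edgeR log2 differences were 1.17 ± 0.20, 1.15 ± 0.23 and 1.16 ± 0.25 (edgeR adjusted p = 0.398, 0.411 and 0.411, DESeq2 adjusted p = 0.00072, 0.00534 and 0.0133). The other 5 were SLC6A18 (0.93 ± 0.20), SLC5A9 (1.31 ± 0.30), SLC6A19 ENSDARG00000056719 (1.72 ± 0.40), SLC5A11 (1.15 ± 0.27), a carrier of inositol, and SLC34A1 ENSDARG00000054658 (0.96 ± 0.23), each with an edgeR adjusted p of 0.411. Among the 3 members with the lowest unadjusted p in the other direction were SLC15A4 (-0.72 ± 0.26) and SLC6A13.

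**Figure D4:**
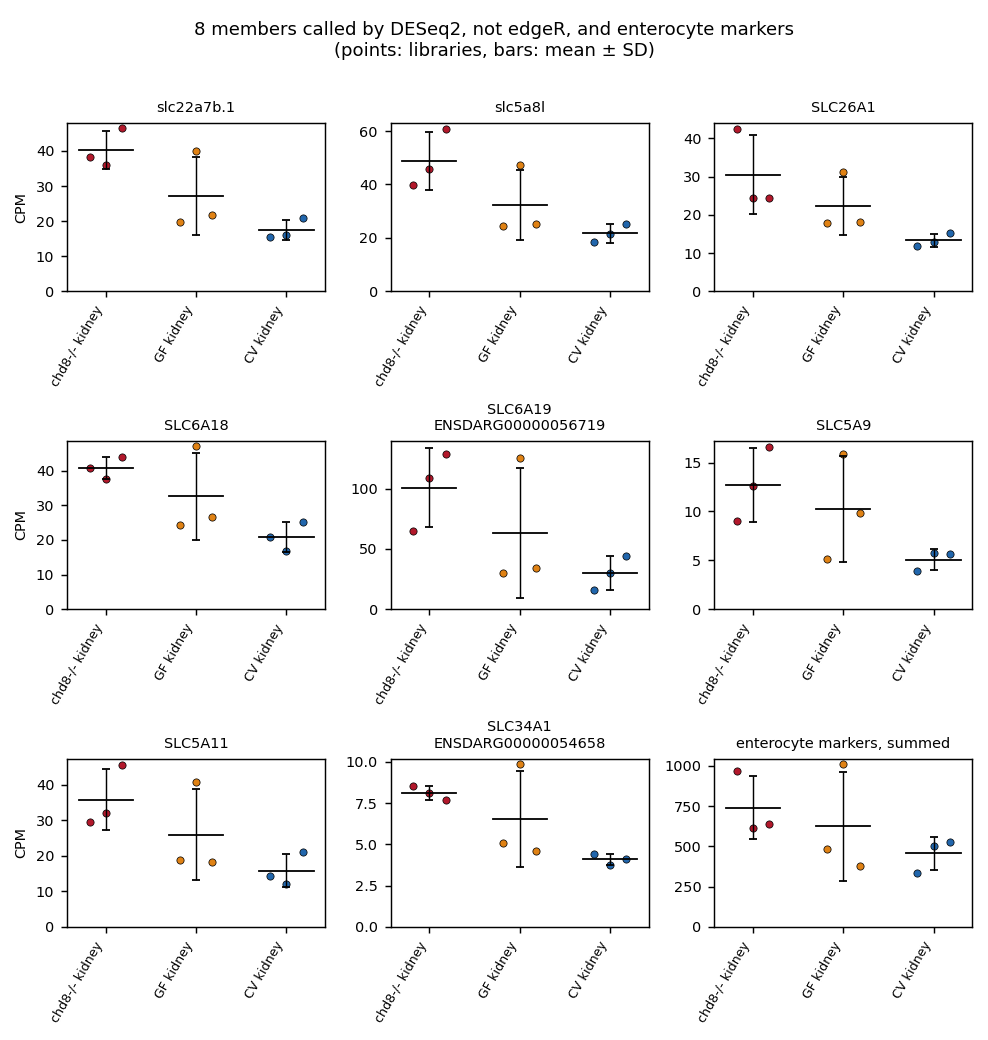
CPM of the 8 members that DESeq2 but not edgeR called between chd8-/- and CV kidney, and of the summed enterocyte markers, in the 3 kidney groups (points: libraries; bars: mean ± SD, n = 3 per group). GF kidney 2 is the highest of the 3 GF libraries in all 9 panels, and it is the highest of the 9 kidney libraries in the marker sum.

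A single GF library was as high in these members as the mutant ones. For slc22a7b.1, GF kidney 1, 2 and 3 had 19.8, 39.9 and 21.7 CPM, and for SLC6A19 ENSDARG00000056719 they had 30.1, 126 and 33.9 CPM, against 64.8, 109 and 129 CPM in chd8-/- and 16.0, 30.2 and 44.3 CPM in CV kidney. Summed enterocyte markers were 966, 616 and 641 CPM in chd8-/- kidney, 483, 1010 and 381 CPM in GF kidney, and 336, 502 and 530 CPM in CV kidney. GF kidney 2 was the highest GF library in this sum as in the 8 members. Of the chd8-/- libraries, chd8-/- kidney 1 was highest in the sum and for SLC26A1, and lowest for SLC6A19 ENSDARG00000056719 and slc5a8l. Between chd8-/- and CV kidney, the enterocyte markers tested had positive log2 differences, from FABP1 ENSDARG00000059227 (1.72 ± 0.48) downward, with these exceptions. ANPEP ENSDARG00000097285 had -0.30 ± 0.19 and MEP1B ENSDARG00000037533 had -0.06 ± 0.64. None of the markers was called by edgeR. GF kidney 2 was the highest of the 9 kidney libraries in 6 of the 18 enterocyte markers. Over the 125 members with a mean of at least 1 CPM in kidney, chd8-/- kidney 1 was the highest library in 26.4% and GF kidney 2 in 20.8%, against 16.8% and 12.3% of all genes, and CV kidney 1 the lowest in 31.2%, against 19.8% of all genes. CV kidney 1 also had the highest summed leukocyte markers, 620 CPM against 139 to 223 CPM in the other kidney libraries, with 14 of the 17 genes highest there. Summed liver markers were 14100, 15300 and 20200 CPM in chd8-/- kidney, 8090, 17300 and 10800 CPM in GF kidney, and 5950, 11500 and 10900 CPM in CV kidney. Exocrine pancreas markers were 42100, 75800 and 33600 CPM in GF kidney, and overlapped between chd8-/- (55200 to 76100 CPM) and CV kidney (59500 to 71700 CPM). CV kidney 1 was the lowest kidney library in 9 of 14 liver and 7 of 9 podocyte markers. The part of enterocyte, liver, pancreas, podocyte and leukocyte RNA in the kidney results was not tested.

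The GF and CV groups were raised without and with microbes, but GF fish were also washed and kept in antibiotic medium. CV fish were not washed in this way, so microbes and treatment cannot be told apart. In intestine edgeR called 0 of 133 members tested, and 0.0% of all 20954 genes tested. At an unadjusted p under 0.05 there were 12 members (9 higher, 3 lower in GF), against 5.96% of all genes. The median log2 difference of GF over CV was 0.09 over the members and 0.01 over all genes. DESeq2 called 1 member, against 0.167% of all genes: SLC12A7, a potassium-chloride carrier, had 105, 117 and 109 CPM in GF intestine, against 73.4, 58.4 and 69.5 CPM in CV intestine. The GF libraries lay above the CV libraries, and the groups did not overlap for 11.0% of all genes tested. Its log2 difference was 0.73 ± 0.16, with an adjusted p of 0.0181 in DESeq2 and 0.803 in edgeR.

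The next smallest p-values also missed the threshold in both tools. SLC7A3 ENSDARG00000020645, a carrier of basic amino acids, had a log2 difference of 0.70 ± 0.21 and slc2a3a one of 0.56 ± 0.18. In the other direction were SLC2A6, with 1.29, 1.49 and 0.839 CPM in GF and 3.48, 1.95 and 5.28 CPM in CV intestine (-1.56 ± 0.42), SLC15A1 ENSDARG00000100315, with 152, 171 and 180 CPM in GF and 246, 305 and 216 CPM in CV intestine (-0.60 ± 0.19), and slc12a7a (-0.40 ± 0.17). The GF libraries lay below the CV libraries for these 3 carriers, against the same 11.0% of all genes without overlap. Summed enterocyte markers were 9920, 10700 and 8880 CPM in GF intestine, against 12900, 12000 and 12300 CPM in CV intestine, and all 17 markers tested had a negative log2 difference, with a median of -0.34. Their part in the carriers' values was not tested.

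GF intestine 3 stood apart in some carriers, of which not all are known from nerve cells. In 6 of the 126 members with a mean of at least 1 CPM in intestine it was the highest intestine library by 3-fold or more. The same held for 345 of all 18046 genes at that level. Among them, slc12a5b, a potassium-chloride carrier of neurons, had 0, 0.129 and 13.5 CPM in GF intestine, against 0.138, 0 and 0.151 CPM in CV intestine. SLC6A11 had 0.37, 0.388 and 10.8 CPM in GF, against 0.276, 0.135 and 0.629 CPM in CV intestine. SLC6A17 (6.76 CPM in that library) and SLC7A5 (6.15 CPM) showed the same high library. The summed neuron and retina markers were 822 CPM in GF intestine 3 and 77.4 to 106 CPM in the other 8 intestine libraries, and 20 of the 24 list genes were highest there. SLC6A11 and SLC6A17 are 2 of the 12 members with an unadjusted p under 0.05, and their log2 differences, 3.46 ± 1.45 and 3.26 ± 1.21, were as low as 0.10 and 0.66 with 1 library left out.

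**Figure D5:**
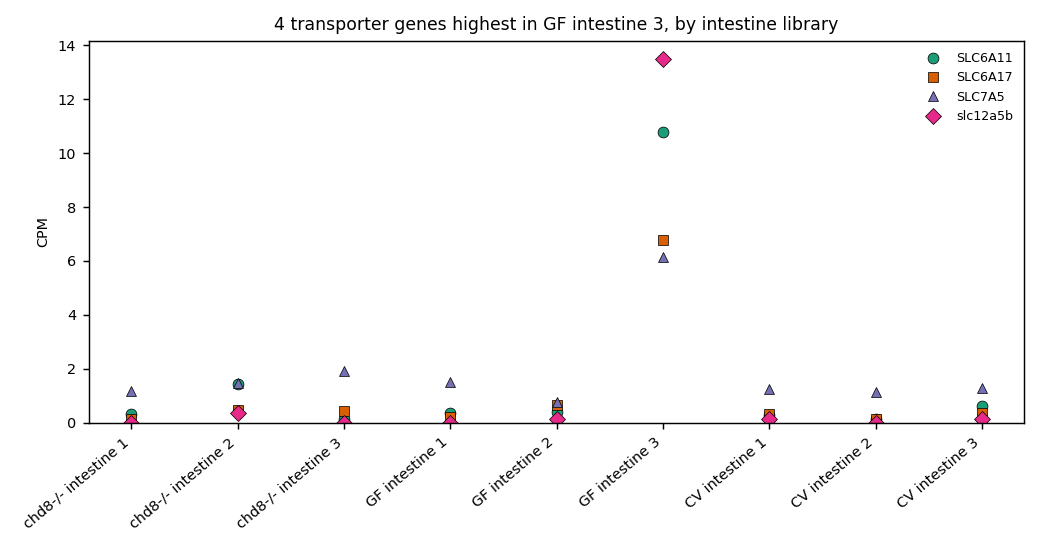
CPM (linear axis) of 4 of the members in which GF intestine 3 was the highest intestine library by 3-fold or more, in each of the 9 intestine libraries (chd8-/-, GF and CV from left to right; each symbol is 1 gene in 1 library). In GF intestine 3 the 4 genes lie between 6.15 and 13.5 CPM, and in the other 8 libraries they lie at or under 1.9 CPM.

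Kidney gave the same count. No member of 134 tested was called between GF and CV kidney by edgeR (0.0% of all 21120 genes), and 9 had an unadjusted p under 0.05 (6 higher, 3 lower in GF), against 8.79% of all genes. The median log2 difference was 0.22 over the members and 0.01 over all genes. DESeq2 called 1 member, against 0.833% of all genes: SLC2A6, a facilitated sugar carrier, had 3.39, 3.80 and 3.51 CPM in GF kidney, against 39.9, 8.28 and 5.26 CPM in CV kidney. The groups did not overlap, as for 15.1% of all genes, and the high value was that of CV kidney 1, the library with the highest summed leukocyte markers. Its log2 difference of -2.34 ± 0.72 (DESeq2 adjusted p = 0.032, edgeR adjusted p = 0.542) came to -0.93 in the edgeR fit with the smallest difference when 1 library was left out. The smallest p-values in the other direction were those of SLC15A2, with 23.6, 29.0 and 25.0 CPM in GF and 14.4, 16.6 and 20.2 CPM in CV kidney (0.59 ± 0.18), slc12a10.2 (0.74 ± 0.24) and SLC26A1 (0.73 ± 0.25), and, after SLC2A6, the lower ones were slc9a3.2 (-0.57 ± 0.21) and slc6a7 (-0.63 ± 0.24).

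With CV kidney 1 and GF kidney 2 both left out, since earlier results of these data had shown them to stand apart, 5 of 136 members were called, all higher in GF kidney, against 4.43% of all genes. Among them were slc5a3b (1.07 ± 0.25, edgeR adjusted p = 0.0307) and SLC12A1 (0.49 ± 0.13, edgeR adjusted p = 0.0489). The SLC12A1 value was -0.08 ± 0.40 with all 6 libraries and -0.32 to 0.29 with 1 left out, so its direction turned with the libraries used. slc5a3b had 9.38 and 7.51 CPM in GF kidney 1 and 3, against 3.96 and 4.23 CPM in CV kidney 2 and 3. The libraries left out had 4.14 CPM (GF kidney 2) and 7.37 CPM (CV kidney 1), so the full groups overlapped. The summed neuron and retina markers were 238 and 190 CPM in GF kidney 1 and 3 and 75.7 to 105 CPM in the other 7 kidney libraries, and their part in this result was not tested.

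Whether a response differed between the tissues was tested as the kidney difference minus the intestine difference. For chd8-/- against CV, edgeR called 0 of 140 members (0.153% of all genes tested), with 15 higher and 4 lower at an unadjusted p under 0.05, against 9.89% of all genes. DESeq2 called 2 members, SLC26A1 and slc22a13a, against 1.38% of all genes. For SLC26A1 the log2 difference was 1.16 in kidney, and its level in intestine was 14.0, 17.7 and 17.8 CPM in chd8-/- and 17.5, 20.2 and 15 CPM in CV fish. The difference of the differences was 1.29 ± 0.32 (edgeR adjusted p = 0.176, DESeq2 adjusted p = 0.0315). slc22a13a had no count in CV kidney, so no size is given. For GF against CV, edgeR called 0 of 140 members (0.0% of all genes tested) and DESeq2 also 0, against 0.107% of all genes, with 8 at an unadjusted p under 0.05, against 5.77% of all genes. The smallest p belonged to SLC15A2, whose difference of the differences was 1.1 ± 0.31 (adjusted p = 0.846).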

How the data were processed

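RNA was measured in 18 libraries, 3 in each of 6 groups, and deposited as 4 tables of whole-number read counts per gene, each with 32520 genes. Per the submitters' processing notes, reads were trimmed with Trim Galore (0.6.7), checked with FastQC (0.11.9), aligned with STAR (2.7.9a) to GRCz11 and counted with featureCounts of Subread (2.0.1). Which annotation release and strand option were used, and how multi-mapping reads were handled, is not given in the sources used here, so the counts of near-identical copies and of overlapping or antisense genes are uncertain. No gene length or genome of that build was used, so no coordinates or sequences are given. Symbols came from the deposited tables and an Ensembl name table, which together named 29201 genes, and 0 columns were left unmatched to a sample.

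The 3 CV intestine libraries stand in both intestine tables under other replicate numbers (replicate 1, 2 and 3 of the germ-free table are 3, 1 and 2 of the chd8 table) and differ there by 0.074 to 0.228% of the total count. They were used once in each fit, and CPM and replicate numbers in the text follow the germ-free table. Libraries of a group differed by more than sampling noise (chi-square per degree of freedom at least 16.48), and each was counted as 1 replicate. This excess can also be technical, so it does not show that the libraries came from separate fish. Same-numbered libraries did not consistently deviate together (correlations of -0.186 to 0.28), so they were not treated as pairs. With 3 libraries per group this check cannot exclude pairing.

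From the deposited counts, edgeR (4.0.16) in R (4.3.3) gave quasi-likelihood tests with TMM scaling, filterByExpr and robust fits on the groups of each comparison, with Benjamini-Hochberg adjustment over all genes tested and calls at 0.05. SE is the log2 difference divided by the square root of F. At an unadjusted p under 0.05 the share of all genes is given for both directions together. Splits by direction at that threshold are therefore not read as results about the members. The alternatives were DESeq2 (1.42.0), RLE size factors, total count only, no filter, 3 groups in 1 fit, the CV intestine columns of the chd8 table, the replicate number as a block and each library left out. The fit without CV kidney 1 and GF kidney 2 was chosen from earlier results of these data. The test was checked on simulated data.

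Named per comparison were the 10 called members with the largest difference each way, where fewer than 3 were called the 3 with the smallest p each way, a fixed set of textbook carriers, and any member called in all 3 tissue comparisons. Members that only DESeq2 called, that were highest in GF intestine 3 or that were called without 2 libraries were picked after their values were seen. Some genes that these rules take in are not reported here. The members and lists were chosen with earlier results of these data known.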

Additional observations from a re-analysis of the deposited data

How the results depend on the processing

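The tissue comparisons called 66 to 95 members in chd8-/-, 63 to 85 in GF and 69 to 81 in CV fish with 1 library left out, and 79 to 87, 77 to 86 and 77 to 84 under the other settings. Of the 82, 78 and 83 members called with all libraries, 61, 59 and 65 were called the same way in all 6 fits that left out 1, and 77, 69 and 73 under all the other settings. DESeq2 in place of edgeR moved the counts of members called to 18 (11 higher, 7 lower) for chd8-/- against CV intestine, 8 for chd8-/- against CV kidney, 1 for GF against CV in intestine and 1 in kidney, and 2 for the tissue difference of the chd8-/- response. With 1 library left out, the chd8-/- intestine count ranged from 3 to 24, and the count for the remaining treatment comparisons and both tissue differences stayed at 0. The replicate block, whose numbers are not known to pair the libraries, gave 5 calls in chd8-/- intestine (3 higher, 2 lower), ended the CV tissue call of SLC6A18 and otherwise moved no count by over 1.5 times. Without CV kidney 1 and GF kidney 2 the GF kidney count was 5. For chd8-/- intestine and the tissue comparisons the share of all genes called is given only beside the edgeR calls with all libraries. The counts under their other settings are therefore not read as a result about the members. SLC12A1 in GF against CV kidney, negative in the fit of all 6 libraries, was 0.12 without CV kidney 1, 0.29 without GF kidney 2 (range -0.32 to 0.29 with 1 library left out) and 0.49 without both. The cause was not tested. Scaling by total count only moved the median of all genes by over 0.1 in chd8-/- intestine (-0.14), CV kidney against intestine (-0.13) and GF kidney against intestine (-0.18). With 3 libraries per group, members under about 1 CPM rest on few counts, and a member that was not called is not shown to be unchanged.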
